A study of Homo sapiens with 6 samples.

Results

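The genes described here were 10 components of NOTCH signaling, taken by name from the 28008 genes of the count table. They comprised 3 receptors (NOTCH1, NOTCH2 and NOTCH3), 3 ligands (JAG1, JAG2 and DLL1), RBPJ, the DNA-binding protein of the pathway, and 3 HES/HEY target genes (HES1, HEY1 and HES4). The cells sequenced were DU-145-DR/tet-MUC1shRNA, which derive from the human prostate cancer line DU-145 by selection in rising docetaxel (DTX) and carry a short hairpin RNA against MUC1 under a doxycycline (DOX) switch. The 3 DOX-negative cultures received 0.1% DMSO as vehicle, and the 3 DOX-positive cultures received 500 ng/ml DOX, which turns on the hairpin and silences MUC1-C. Both groups therefore share the DTX-resistant background and the puromycin-selected hairpin vector, although the sample labels mention the hairpin in DOX-positive cultures alone. All cultures came from 1 resistant line, no library of a control hairpin with DOX was analysed here, and the effect of MUC1-C silencing and that of DOX itself cannot be told apart. Per the study, vehicle or DOX was given for a week before the RNA was taken.

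NOTCH receptors are single-pass membrane proteins that are activated by ligands of the Jagged and Delta-like families on a neighboring cell. Ligand pulling exposes the receptor to an ADAM protease and then to gamma-secretase, which frees the intracellular domain. That domain enters the nucleus, binds RBPJ and recruits Mastermind coactivators, and the complex switches on genes such as those of the HES and HEY repressors. In prostate and other epithelia the pathway is known for its part in cell fate choice, and different receptors can act in different directions.

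The libraries held between 15092691 and 23243713 counts, and the floor of 3 counts lay at 0.129 to 0.199 CPM, the counts per 1000000 counts of a library. MUC1 fell from 21.9 ± 2.58 to 3.86 ± 0.585 CPM (SD, n = 3), a log2 fold change of -2.52 with an SE of 0.146 and an adjusted p of 4.47e-11 by edgeR, and so the labels matched the targeted gene. The prostate secretory marker KLK3 had 0 counts in every library, and the 5 epithelial markers EPCAM, KRT8, KRT18, KRT19 and CDH1 were all present. These markers rose with DOX, 5 of 5 at an adjusted p under 0.05, where 13.0% of all genes tested were higher. Their summed level lay between 757.6 and 837.8 CPM in DOX-negative and between 1444 and 1517 CPM in DOX-positive libraries. Fibroblast markers summed to at most 6.16 CPM, endothelial markers to at most 1.13 CPM and immune markers to at most 0.654 CPM in any library. In bulk libraries such as these, fewer cells that express a gene and less RNA per cell cannot be told apart, and the part of the epithelial shift in the results for NOTCH genes was not tested.

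Silencing of MUC1-C went with a mixed response in the NOTCH genes. NOTCH3 fell to 0.532 of its DOX-negative level and HES4 rose 2.65-fold, while JAG1 rose 1.48-fold and JAG2 fell to 0.838 of its level. No call was made for NOTCH1, NOTCH2, RBPJ, HES1 or HEY1, and DLL1 was too low to be tested. Of the 9 genes tested, 4 passed an adjusted p of 0.05 (44.4%), where 26.7% of all 14292 genes tested passed. In each direction there were 2 genes, beside 13.0% of all genes higher and 13.7% lower. CPM values of the groups did not overlap for 5 of the 9 genes, which includes NOTCH1, against 39.8% of all genes tested. The median log2 fold change of the 9 genes was 0.13, and that of all genes tested was -0.0034. Without DOX-positive replicate 3, only NOTCH3 and HES4 passed, and the count of genes called was 2. With each library's trends with GC content and length removed, 4 passed again but as 3 higher and 1 lower, since NOTCH1 passed and JAG2 did not.

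**Figure D1:**
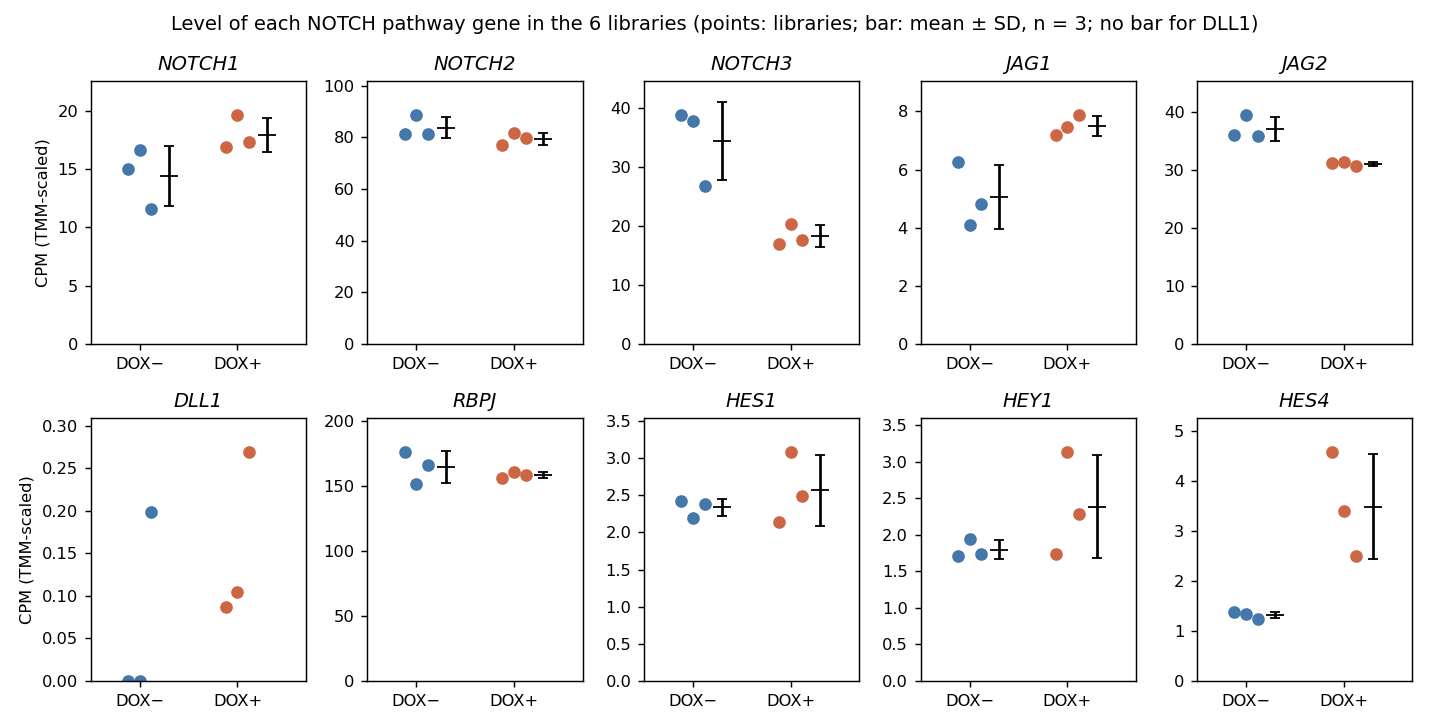
Level of each of the 10 NOTCH pathway genes in CPM (vertical axis, linear from 0, with a separate scale for each gene) in the DOX-negative (DOX−, blue) and DOX-positive (DOX+, orange) libraries. Points are libraries 1 to 3 from left to right and bars give the mean ± SD of 3 libraries, except for DLL1, whose counts lie near the floor. The groups are apart for NOTCH1, NOTCH3, JAG1, JAG2 and HES4 and overlap for NOTCH2, RBPJ, HES1 and HEY1.

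Among the receptors, NOTCH3 carried the change. NOTCH3 (chr19:15159038-15200995, GRCh38.p14) encodes a receptor best known from vascular smooth muscle. Its counts were 703, 738 and 539 in DOX-negative replicates 1 to 3, or 38.7, 37.7 and 26.8 CPM. In DOX-positive replicates 1 to 3 there were 390, 390 and 261 counts, or 17.0, 20.4 and 17.5 CPM. The third DOX-negative library was the lowest of its group, but it was still above each DOX-positive library. From 34.4 ± 6.60 to 18.3 ± 1.81 CPM, the log2 fold change was -0.91 (SE 0.123, 95% interval -1.16 to -0.65, adjusted p = 8.73e-06). Every one of the 17 other settings kept the fall past the threshold, with log2 fold changes between -1.26 and -0.82.

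NOTCH1 (chr9:136494433-136546048) encodes the receptor that is mutated in many T cell leukemias. The DOX-negative libraries gave 15.0, 16.6 and 11.5 CPM (273, 325 and 232 counts). With DOX the values were 16.9, 19.6 and 17.3 CPM (388, 375 and 257 counts). The groups did not overlap, but the highest DOX-negative library lay just under the lowest DOX-positive one. The log2 fold change was 0.32 (SE 0.128, 95% interval 0.051 to 0.58), and the adjusted p of 0.0713 missed the threshold. The adjusted p was 0.0431 without a filter on low counts and 0.0256 when DOX-negative replicate 2 was left out. With GC and length trends removed it was 0.0119. On the deposited TPM values the log2 difference was -0.066, where the median over all genes was -0.32 on log2(TPM + 1). On TPM rescaled without 5 short noncoding RNAs the difference of NOTCH1 was 0.25 (limma, adjusted p = 0.264).

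NOTCH2 (chr1:119911553-120069662), the most abundant receptor in these cells, stayed within its spread. It was measured at 81.2, 88.5 and 81.4 CPM without DOX and at 77.0, 81.6 and 79.6 CPM with DOX. The ranges overlapped, and the log2 fold change of -0.077 (SE 0.0706, 95% interval -0.22 to 0.070, adjusted p = 0.464) left room for a small change in either direction. Reads of NOTCH2 may be shared with its near-identical partial copies, so its level is uncertain. The copy listed as NOTCH2NL had between 179 and 251 counts per library and a log2 fold change of 0.24 (adjusted p = 0.242).

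With the fall of NOTCH3, the make-up of the receptor transcripts differed between the groups. Set per length as shares of the summed TPM (transcripts scaled by length to a total of 1000000) of the 3 receptors, a measure that does not depend on how a library was scaled, NOTCH3 made up 36.4%, 33.8% and 29.2% without DOX. With DOX it made up 20.4%, 22.1% and 20.4%. All DOX-positive libraries lay below all DOX-negative ones, and the mean share went from 33.1% ± 3.60 to 20.9% ± 0.980 (SD, n = 3). The two-sided exact permutation test gave p = 0.1, the smallest value that 3 against 3 libraries allow. NOTCH1 took 12.2%, 12.8% and 10.9% without DOX and 17.5%, 18.3% and 17.3% with DOX, a gain of 5.74 percentage points (exact p = 0.1). A share rises when another gene of the sum falls, and the TPM of NOTCH1 itself, rescaled without 5 short noncoding RNAs, had overlapping ranges, 3.20 to 4.84 without DOX and 4.66 to 5.53 with DOX. The share of NOTCH2 averaged 54.9% ± 4.42 and 61.4% ± 1.51, and the groups overlapped (exact p = 0.2). GC content of the principal transcript was 62.9% for NOTCH1 and 63.1% for NOTCH3, beside a median of 48.8% over all genes tested with an annotated transcript.

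**Figure D2:**
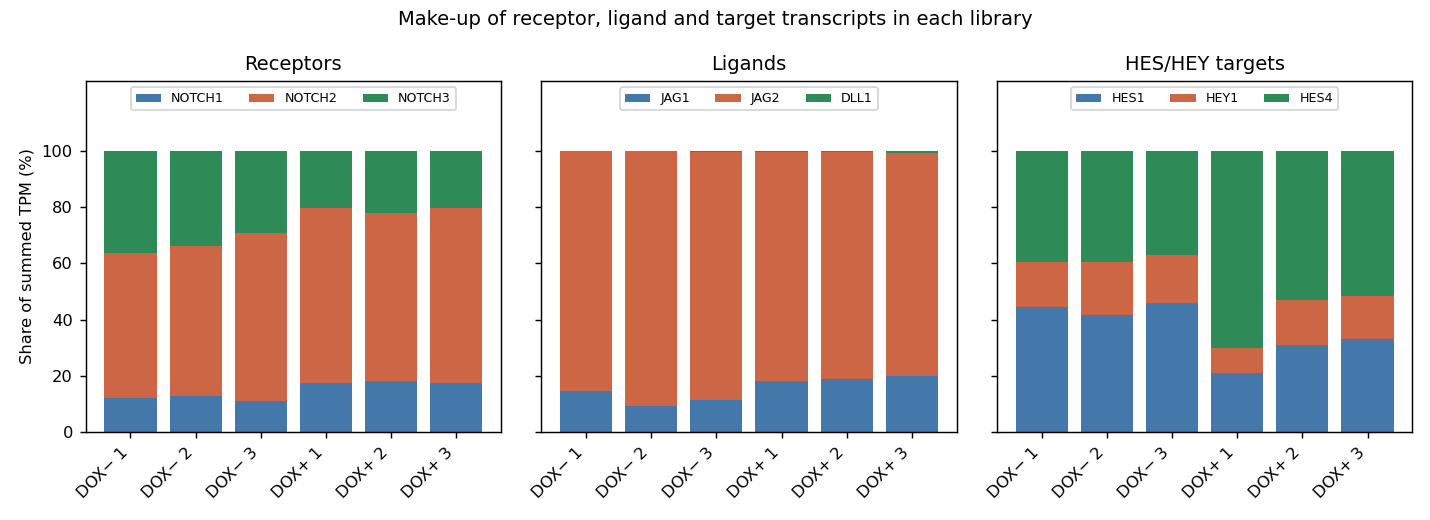
Share of each gene in the summed TPM of its family (vertical axis, percent) in each of the 6 libraries, for the receptors (left), ligands (center) and HES/HEY targets (right). With DOX the NOTCH3 share is 20.4% to 22.1% in place of 29.2% to 36.4%, the JAG1 share is 18.3% to 19.8% in place of 9.17% to 14.5%, and HES4 takes the largest part of the target transcripts.

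Both Jagged ligands passed the test, in opposite directions. JAG1 (chr20:10637684-10673999) encodes the ligand whose loss causes Alagille syndrome. It had 114, 80 and 97 counts without DOX, or 6.27, 4.09 and 4.83 CPM. With DOX it had 165, 143 and 117 counts, or 7.19, 7.47 and 7.87 CPM. The DOX-positive values lay close together and above all of the DOX-negative ones. JAG1 rose from 5.06 ± 1.11 to 7.51 ± 0.340 CPM, with a log2 fold change of 0.57 (SE 0.174, 95% interval 0.21 to 0.93, adjusted p = 0.0183). The call was lost when DOX-negative replicate 2 (adjusted p = 0.0920), DOX-negative replicate 3 (0.0540) or DOX-positive replicate 3 (0.0565) was left out, and in each of the 3 TPM settings, where the difference was as small as 0.097. Exons of JAG1 overlap those of an antisense transcript, AL050403.2, and whether the counting used strand is not given in the sources used here.

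JAG2 (chr14:105140995-105168776) encodes the second Jagged ligand. The DOX-negative libraries had 36.0, 39.4 and 35.9 CPM, from 654, 771 and 721 counts. In the DOX-positive libraries the values were 31.2, 31.3 and 30.7 CPM, from 715, 600 and 457 counts. Each DOX-positive library was below each DOX-negative one. JAG2 fell from 37.1 ± 2.02 to 31.1 ± 0.317 CPM, a log2 fold change of -0.26 (SE 0.0852, 95% interval -0.43 to -0.079, adjusted p = 0.0299). Every other setting kept the direction, from -0.64 to -0.17, but 8 of 17 kept the call, and it was lost without DOX-negative replicate 1 (0.0588), DOX-negative replicate 2 (0.118), DOX-positive replicate 1 (0.0726) or DOX-positive replicate 3 (0.0864). JAG2 shares exon sequence on the same strand with the transcript AL512356.1, so that reads in the overlap could count for either.

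DLL1 (chr6:170282206-170291078), a ligand of the Delta-like family, was at or near the floor. It had 0, 0 and 4 counts without DOX and 2, 2 and 4 counts with DOX, and no difference was detectable at this depth. As shares of the ligand TPM, JAG1 made up 14.5%, 9.17% and 11.5% without DOX and 18.3%, 18.8% and 19.8% with DOX. That is a gain of 7.24 percentage points, and JAG2 fell by 7.44 points, from 88.1% ± 2.67 to 80.7% ± 1.00. For both the groups did not overlap and the exact permutation test gave its smallest value, p = 0.1. JAG2 thus remained the major ligand transcript in all 6 libraries.

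RBPJ (chr4:26105449-26435131) binds DNA for the whole pathway and represses its targets when no NOTCH domain is bound. It was measured at 176.1, 151.8 and 166.4 CPM without DOX and at 156.4, 161.1 and 158.7 CPM with DOX. The ranges overlapped. The log2 fold change of -0.054 (SE 0.0665, adjusted p = 0.599) had a 95% interval of -0.19 to 0.084. The annotation names 4 processed copies of RBPJ (RBPJP2, RBPJP5, RBPJP6 and RBPJP7), which could take or lend reads.

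Of the targets, HES4 alone passed the test. The promoters of HES4 and HES1 are shown because both genes are textbook NOTCH targets, with the core of the RBPJ recognition motif, TGGGAA, in capitals. The 120 bases before the RefSeq start site are given on the strand of the gene, HES4 from chr1:1000098-1000217 (minus strand) and HES1 from chr3:194136028-194136147 (plus strand), both GRCh38.p14.
HES4: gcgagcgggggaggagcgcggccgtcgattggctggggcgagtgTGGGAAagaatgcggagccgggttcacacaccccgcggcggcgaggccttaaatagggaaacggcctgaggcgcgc
HES1: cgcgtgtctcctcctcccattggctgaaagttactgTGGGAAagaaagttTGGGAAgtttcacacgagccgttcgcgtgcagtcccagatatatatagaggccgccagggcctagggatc
The HES4 stretch holds 1 core, which begins 76 bases before the start, and the HES1 stretch holds 2, at 84 and 70 bases. In each of the pair, 1 core is part of the longer word GTGGGAA. On either strand of the 250 bases before a start, TGGGAA was found in 20.8% of 35116 RefSeq promoters and GTGGGAA in 5.43%. Promoter sequences were given for 8 of the 10 genes. The words were absent from those of NOTCH1, NOTCH2, NOTCH3, JAG1 and JAG2, and 1 of the RBPJ promoters held GTGGGAA 2 times. A match is a description of these letters and not evidence of binding.

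HES4 (chr1:998964-1000097) encodes a basic helix-loop-helix repressor that has no direct counterpart in the mouse. It had 25, 26 and 25 counts without DOX, or 1.38, 1.33 and 1.24 CPM. With DOX it had 105, 65 and 37 counts, or 4.58, 3.40 and 2.49 CPM. The DOX-negative values were nearly equal, and the DOX-positive values were all higher but spread over a wide range, with the highest in the library with the most counts and the lowest in the library with the fewest. The part of library depth in that spread was not tested. HES4 rose from 1.32 ± 0.0671 to 3.49 ± 1.05 CPM, with a log2 fold change of 1.42 (SE 0.277, 95% interval 0.85 to 2.00, adjusted p = 0.000537). The rise passed in 15 of 17 other settings, with log2 differences between 0.72 and 1.60, and missed it on log2(TPM + 1) (adjusted p = 0.133) and log2(TPM + 0.1) (0.130). Its transcript had the highest GC content of the 10 genes, 74.0%, and with each library's trends with GC content and length removed the difference was 1.33 (adjusted p = 0.000719).

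HES1 (chr3:194136148-194138732), the most widely used readout of NOTCH activity, showed no detectable change. Its values were 2.42, 2.20 and 2.39 CPM without DOX and 2.14, 3.08 and 2.49 CPM with DOX, from 37 to 59 counts per library. The groups overlapped, and the log2 fold change of 0.13 (SE 0.250, adjusted p = 0.747) had a 95% interval of -0.39 to 0.65. HEY1, a target with roles in vessels and bone, had 1.71, 1.94 and 1.74 CPM without DOX and 1.74, 3.13 and 2.29 CPM with DOX. Its log2 fold change was 0.40 (SE 0.282, 95% interval -0.19 to 0.99, adjusted p = 0.320). Replicate 2 was the highest DOX-positive library for both genes, and without it the log2 fold changes were -0.027 for HES1 and 0.14 for HEY1. On the deposited TPM values both signs turned negative, at -0.19 and -0.012 on log2(TPM + 1), where the median over all genes was -0.32. On TPM rescaled without 5 short noncoding RNAs the differences were 0.084 for HES1 and 0.25 for HEY1.

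Shares of the target transcripts, computed after the values were seen, restate the rise of HES4 and are given as a description. HES4 went from 38.6% ± 1.30 to 58.2% ± 10.4 of the summed TPM of the 3 targets, and HES1 from 44.0% ± 2.06 to 28.3% ± 6.41, although the TPM of HES1 itself was 5.11 ± 0.213 and 5.53 ± 1.08. HEY1 went from 17.4% ± 1.43 to 13.5% ± 4.08.

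**Figure D3:**
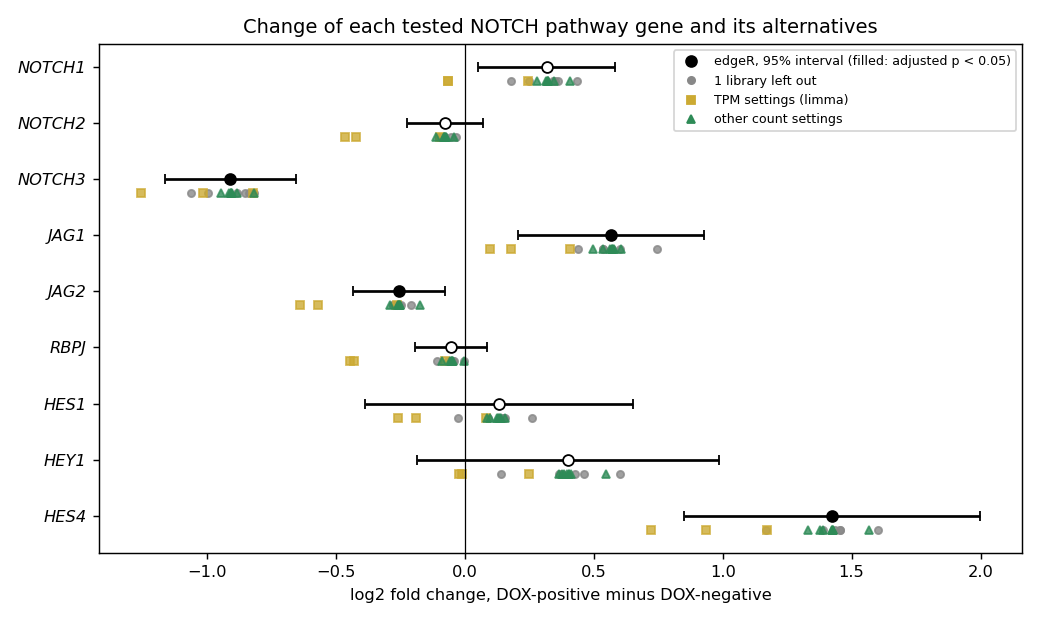
Log2 fold change, DOX-positive minus DOX-negative (horizontal axis), of the 9 NOTCH pathway genes tested, with the edgeR estimate and its 95% interval (black, filled where the adjusted p is under 0.05) and the 17 other settings below it. NOTCH3 lies between -1.26 and -0.82 in every other setting and HES4 between 0.72 and 1.60, while NOTCH1, HES1 and HEY1 fall on the other side of 0 on the deposited TPM values, and HES1 also with DOX-positive replicate 2 left out.

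Per length, RBPJ was the most abundant of the 10 transcripts. Levels were compared in TPM rescaled without 5 short noncoding RNAs, which held between 34.4% and 64.4% of the deposited TPM of a library. Without DOX the order was RBPJ (70.7 ± 4.93 TPM), NOTCH2 (18.7 ± 1.30), JAG2 (17.2 ± 1.30), NOTCH3 (11.4 ± 2.42), HES1 (5.11 ± 0.213), HES4 (4.49 ± 0.328), NOTCH1 (4.12 ± 0.838), JAG1 (2.28 ± 0.505), HEY1 (2.02 ± 0.182) and DLL1 (at most 0.0785 in a library). Within that order the ranges of NOTCH2 and JAG2, of HES4 and NOTCH1, and of JAG1 and HEY1 overlapped. With DOX, HES4 was the fourth at 11.7 ± 3.37 TPM, in a range that overlapped that of JAG2 (14.2 ± 0.216), and NOTCH3 was the fifth at 5.95 ± 0.644 TPM, in a range that overlapped that of HES1 (5.53 ± 1.08). HES1 and NOTCH1 (5.03 ± 0.453) overlapped as well, and so did JAG1 (3.33 ± 0.190) and HEY1 (2.64 ± 0.800). RBPJ (67.0 ± 1.85) and NOTCH2 (17.4 ± 0.739) kept the top of the order.

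Genes next to the 4 that passed the test were examined to see whether the change was shared along the chromosome, a choice made after the values were seen. Nearest tested neighbors are given by their RefSeq order on GRCh38.p14. SYDE1, 44063 bases from NOTCH3, also fell, with a log2 fold change of -0.71 (SE 0.114, adjusted p = 7.04e-05). On either side of HES4, PLEKHN1 at 23098 bases rose by 0.82 on the log2 scale (SE 0.260, adjusted p = 0.0224) and the interferon-induced gene ISG15 at 13399 bases fell by 0.57 (SE 0.147, adjusted p = 0.00568). The neighbors of JAG1 were not called. SLX4IP, 9653 bases away, had a log2 fold change of 0.0094 (adjusted p = 0.958), and BTBD3, as far as 1216817 bases away, had 0.24 (0.0633). Those of JAG2 were not called either, LINC02298 at 41498 bases with -0.49 (0.0928) and NUDT14 at 4162 bases with 0.058 (0.836).

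A wider list of 63 NOTCH pathway genes, from ligand endocytosis to corepressors, was then read from the same fit. Of these, 56 were tested and 14 passed (25.0%, where 26.7% of all genes did), 4 of them higher and 10 lower with DOX. The median log2 fold change of the 56 was -0.015, and 25 had groups that did not overlap, where 39.8% of all genes tested did not. With GC and length trends removed, 18 passed and the split turned to 12 higher and 6 lower, and the count was 9 when either DOX-negative replicate 3 or DOX-positive replicate 1 was left out. DLK1 and HES3 had 0 counts in every library and HES5 had at most 2, and DLK2, LFNG, MFNG and DTX1 were also too low to be tested. The list as a whole was therefore called about as often as other genes, and its members are given by their step in the pathway.

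Among the ubiquitin ligases and endocytic regulators, 2 of 12 tested were called (16.7%, beside 26.7% of all genes), both lower with DOX. Of all genes tested, 13.7% were called lower. NEURL1B, an E3 ligase of the Neuralized family that acts on NOTCH ligands, fell from 15.0 ± 1.16 to 7.38 ± 0.907 CPM (log2 fold change -1.04, SE 0.135, adjusted p = 5.59e-06). NUMBL, a relative of the NOTCH inhibitor NUMB, fell by 0.29 on the log2 scale (adjusted p = 0.0193). Of the 4 glycosylation and furin genes tested, 1 was called (25.0%, near the share of all genes). This was POGLUT1, which adds glucose to the EGF repeats of NOTCH and fell by 0.38 (SE 0.104, adjusted p = 0.00986). Of the proteases that release the receptor, ADAM10 fell by 0.19 (SE 0.0647, adjusted p = 0.0333). ADAM17 had a log2 fold change of -0.12 (SE 0.0723, 95% interval -0.27 to 0.027, adjusted p = 0.224), and the difference between these genes was not tested. Of the 6 gamma-secretase subunits, 2 were called (33.3%, beside 26.7% of all genes), both higher with DOX. APH1B rose by 0.46 (SE 0.115, adjusted p = 0.00486) and NCSTN, the substrate-docking subunit nicastrin, by 0.28 (SE 0.0725, adjusted p = 0.00660). On the deposited TPM values NCSTN had a difference of -0.11, where the median over all genes was -0.32 on log2(TPM + 1). On TPM rescaled without 5 short noncoding RNAs the difference of NCSTN was 0.25 (limma, adjusted p = 0.0322). The receptor NOTCH4, the ligands DLL3 and DLL4 and the noncanonical ligand DNER were low and were not called. The calls of ADAM10, NUMBL and POGLUT1 were lost when some single libraries were left out, and those of ADAM10 (adjusted p = 0.0703) and NUMBL (0.0559) also with GC and length trends removed. The adjusted p of ADAM10 went up to 0.168 (lost for DOX-negative replicates 1 and 3 and DOX-positive replicates 1 and 3), that of NUMBL to 0.0966 (DOX-negative replicate 3 and DOX-positive replicates 1 and 3) and that of POGLUT1 to 0.0522 (DOX-negative replicate 3 and DOX-positive replicate 1).

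In the nucleus, 3 of 8 coactivators passed (37.5%, beside 26.7% of all genes), 1 higher and 2 lower. MAML2, a Mastermind protein that holds the NOTCH domain on RBPJ, fell from 4.69 ± 0.266 to 2.27 ± 0.308 CPM (log2 fold change -1.06, SE 0.215, adjusted p = 0.000808). KAT2B, an acetyltransferase, rose by 0.40 (SE 0.0856, adjusted p = 0.00126), and its paralog KAT2A fell by 0.24 (SE 0.0811, adjusted p = 0.0297). Of the 12 corepressors tested, 4 were called (33.3%, near the 26.7% of all genes), each lower with DOX, where 13.7% of all genes were called lower. CTBP1 fell by 0.57 on the log2 scale (SE 0.0835, adjusted p = 2.67e-05), TLE2 by 0.42 (SE 0.0991, adjusted p = 0.00331), NCOR1 by 0.29 (SE 0.0669, adjusted p = 0.00241) and CTBP2 by 0.21 (SE 0.0710, adjusted p = 0.0323). For CTBP2 the groups overlapped, and its call was lost when any of DOX-negative replicates 1 and 3 and DOX-positive replicates 1 and 3 was left out (adjusted p up to 0.150). That of KAT2A was lost for DOX-negative replicates 2 and 3 and DOX-positive replicates 1 and 2 (up to 0.128). Neither passed with GC and length trends removed, at an adjusted p of 0.0614 for CTBP2 and 0.0670 for KAT2A.

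Among 8 tested genes of the remaining HES, HEY and feedback group, BHLHE40 alone passed (12.5%, beside 26.7% of all genes). BHLHE40, a basic helix-loop-helix repressor related to the HES factors and known from clock and hypoxia responses, rose from 27.0 ± 2.33 to 69.8 ± 1.09 CPM (log2 fold change 1.37, SE 0.0835, adjusted p = 9.17e-11). The values of the direct NOTCH feedback gene NRARP (log2 fold change 0.36, adjusted p = 0.287), of HEYL (0.12, adjusted p = 0.481) and of HES2 (1.30, adjusted p = 0.0515) did not pass, and these genes are given because of their place in the pathway rather than by the rule for named genes. Of the 14 genes of the wider list that passed, NEURL1B and CTBP1 kept their call under all 17 other settings. BHLHE40 missed it on log2(TPM + 1) (adjusted p = 0.0535) and MAML2 on log2(TPM + 0.1) (0.0516). All others lost their call on both deposited TPM scales. On log2(TPM + 1) the difference was 0.0026 for KAT2B (adjusted p = 0.996) and 0.046 for APH1B (0.922). It was -0.75 for TLE2 (0.169) and -0.63 for NCOR1 (0.244), and the median over all genes was -0.32 on that scale.

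**Figure D4:**
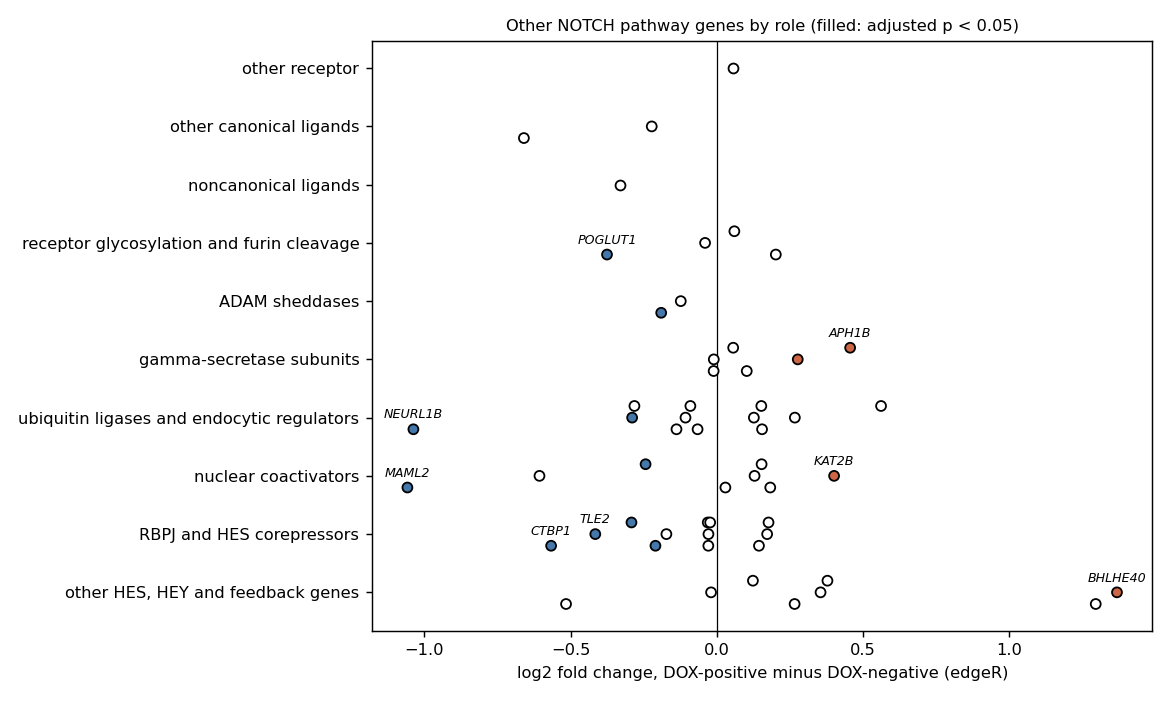
Log2 fold change, DOX-positive minus DOX-negative (horizontal axis), of the 56 tested genes of the wider NOTCH pathway list, grouped by role (vertical axis; the offset within a row only separates points). Filled points passed an adjusted p of 0.05, orange for higher and blue for lower, and the 14 that passed are spread over 7 of the 10 roles. With GC and length trends removed, 12 were higher and 6 lower.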

How the data were processed

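Stranded mRNA libraries (per the labels) of 3 DOX-negative and 3 DOX-positive cultures were compared. The authors deposited whole-number read counts for 28008 genes and TPM values for 25546 genes. STAR, DESeq2 and GRCh38 are named in the submitters' processing notes, without versions. The counting tool, strand setting and annotation are not given in the sources used here. Groups and replicate numbers came from sample titles.

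The count table was fitted with edgeR 4.0.16 under R 4.3.3 (filterByExpr, 14292 genes, TMM factors, quasi-likelihood test, two-sided, group as the only term), with Benjamini-Hochberg adjustment over all genes tested and a threshold of 0.05. Each SE was taken from the log2 fold change and its F statistic. CPM was computed on TMM-scaled totals. Shares were compared by two-sided exact permutation tests. The floor of 3 counts reflects counting error alone. Libraries of the same group were not duplicates of each other (chi-square per degree of freedom 3.65 to 19.0), and p-values measure the spread between cultures of 1 line. The fits were tested on simulated counts.

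The 17 alternatives were DESeq2 1.42.0, RLE factors, unscaled totals, thinned counts, no filter on low counts, a stricter filter (10 counts in each library), the replicate number as a block, limma 3.58.1 on log2(TPM + 1), on log2(TPM + 0.1) and on TPM rescaled without RN7SL1, RN7SL2, RN7SL3, RN7SK and RPPH1, a GC and length correction (transcripts found for 94.5% of genes, added after the data were seen), and each of the 6 libraries left out. A pseudocount shrinks the difference of low genes on the TPM scale. The genes, lists and roles were chosen with earlier results of these data known. Named were all 10 genes, MUC1 and, of the wider list, up to 4 called genes per role and those with at most 3 counts in every library. Other genes named were chosen after their values were seen. Loci and promoters are from RefSeq, GRCh38.p14. The locus of HEY1 and some marker and neighboring genes are not reported here.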

Additional observations from a re-analysis of the deposited data

How the results depend on the processing

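Under the deposited TPM values, 443 genes passed on log2(TPM + 1), 30 higher and 413 lower, and 408 on log2(TPM + 0.1), 29 higher and 379 lower, in place of 3816 (1861 higher and 1955 lower). The median log2 difference of all genes was then -0.32 and -0.39. In those settings 1 of the 10 NOTCH genes (NOTCH3) and 3 of the wider list passed in either case, and 2 of the 10 passed on rescaled TPM. Signs turned for NOTCH1 (-0.066 on both), HES1 (-0.19 and -0.26), HEY1 (-0.012 and -0.021) and NCSTN (-0.11 on both), and for HES1 without DOX-positive replicate 2 (-0.027, in a range up to 0.26 over the libraries left out). On rescaled TPM the differences were 0.25 for NOTCH1, 0.084 for HES1, 0.25 for HEY1 and 0.25 for NCSTN. With each library left out in turn, 2784 to 3645 genes, 2 to 4 of the 10 NOTCH genes and 9 to 18 of the wider list passed. Same-numbered libraries did not deviate together (correlations -0.0189, -0.0950 and -0.0273). With the replicate number as a block, 3158 genes, 3 of the 10 and 11 of the wider list passed, and the calls lost among those named were JAG2 (adjusted p = 0.0623), ADAM10 (0.0751), KAT2A (0.0667) and CTBP2 (0.0792). Total counts gave 1507 genes higher and 2329 lower. The GC and length correction gave 4162 genes, 2263 higher and 1899 lower, with 3 of the 10 NOTCH genes higher and 1 lower, and DESeq2 gave 3537. The causes of these shifts were not tested. With 3 libraries a group, small changes of HES1 and HEY1 were not detectable at this depth.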
